A study of Rattus norvegicus with 48 samples.

Results

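The miR-30 family was represented by 6 of the 143 miRNAs measured in rat liver: rno-miR-30a, rno-miR-30b-5p, rno-miR-30b-3p, rno-miR-30c, rno-miR-30d and rno-miR-30e. The rule took every miRNA called rno-miR-30 followed directly by a letter from a to e, and used no measured value. All 6 had values in every animal. The livers came from male Sprague-Dawley rats, 8 to 14 weeks old, raised for 6 to 8 weeks on liquid food. Ethanol supplied 36% of the calories of EtOH animals, and their CHO partners, fed in matched amounts, got the same share as maltose-dextran. Every animal belonged to a study of 70% partial hepatectomy (PHx), surgery that removes most of the liver and starts its regrowth. Untreated animals of each diet were collected at 0, 6, 24, and 72 h after PHx. Animals of each diet given saline (1 mL) or AM21, a locked nucleic acid oligonucleotide antisense to miR-21 (7.5 mg/kg, injected 72 h before surgery and again right after it), were collected at 0 and 24 h. This gave 16 groups of 3 rats, 48 animals in all, each with RNA from whole liver.

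The 5p strands of the miR-30 family share a seed, the stretch near the 5′ end of a miRNA by which it pairs with its target mRNAs, and differ mainly toward the 3′ end. miR-30b-3p is the opposite strand of the Mir30b hairpin and is not one of the miRNAs with that seed. Mammals carry the genes as pairs at separate loci, and the name without an arm (miR-30a, miR-30c and so on) is the older name of the 5p strand, which is the main product of these hairpins. The miR-30 family is abundant in liver, where miR-30c is known to lower the production of lipoproteins through the mRNA of Mttp, which encodes a protein that loads lipid onto them, and members of the family are known to restrain genes of the extracellular matrix and of TGF-β signalling. The table named no arm for miR-30a, miR-30c, miR-30d and miR-30e, so their values are reported under the names as given.

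Of the 6 members, 3 matched a mature sequence in the RefSeq miRNA table (GRCr8). They are printed to show how alike the molecules are that the probes had to separate, 5′ to 3′ with the seed (bases 2 to 8) in capitals.
rno-miR-30a-5p: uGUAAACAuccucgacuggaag
rno-miR-30c-5p: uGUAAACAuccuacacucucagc
rno-miR-30e-5p: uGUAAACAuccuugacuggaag
All 3 shared their first 12 bases. Counted from 1 at the 5′ end, rno-miR-30a-5p and rno-miR-30e-5p differed at 1 of 22 positions, the substitution C13U from the first to the second. rno-miR-30a-5p and rno-miR-30c-5p differed at 5 of the 22 positions they both have, namely C13A, G14C, G18C, G19U and A20C. Among the 693 mature rat miRNAs of that table, 4 carried the seed, these 3 and rno-miR-384-5p, which was not among the miRNAs measured. The table held no mature sequence of miR-30b-5p, miR-30b-3p or miR-30d, so this count could not include them. How far the probe of one member also counted another was not tested.

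In GRCr8 the mature rno-miR-30c-5p lies at chr5:139634505-139634527 on the minus strand (Mir30c1) and at chr9:33253695-33253717 on the plus strand (Mir30c2), so its level sums the products of both genes. Mir30c1 and Mir30e are 2906 bases apart on chromosome 5, both within the protein-coding gene Nfyc, which encodes a subunit of the transcription factor NF-Y. Mir30a and Mir30c2 are 19670 bases apart on chromosome 9. Mir30b and Mir30d are 3715 bases apart on chromosome 7, both within the long noncoding RNA gene LOC102551574.

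The values deposited were log2 CPM (counts scaled to a common library size, here by TMM, then put on a log2 scale), and the whole counts behind them were recovered. Totals ran from 58168 to 267582 counts per animal, with a median of 160078. The hepatocyte miRNA miR-122 made up 42.1% to 68.8% of each total. The untreated animals at 0 h in set 2 had the lowest totals of their groups, 58168 (CHO) and 92245 (EtOH). The labels number the animals in sets. Sets 1 to 3 hold all animals at 0 and 24 h and set 4 all animals at 6 and 72 h, so a difference between 6 or 72 h and 0 h cannot be told apart from one between sets.

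The depth behind the members differed. The median count over the 48 animals was 527 for miR-30b-5p, 443.5 for miR-30d, 208 for miR-30a, 117 for miR-30c, 33 for miR-30e and 31.5 for miR-30b-3p. At those medians counting error alone was 4.36% for miR-30b-5p, 9.25% for miR-30c and 17.8% for miR-30b-3p. Counts of one probe say nothing of the level of another, since probes differ in efficiency, so each member is compared with itself. The lowest count of any member was 5, for miR-30e in the untreated CHO animal at 0 h with the lowest total. By mean count miR-30e ranked 138 and miR-30b-3p 140 of the 143 miRNAs, where the lowest mean count of any was 30.3. In bulk tissue, fewer cells of a type and less of a miRNA per cell cannot be told apart.

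miR-30c had the largest difference by diet at 0 h of the 6 members. It was highest in EtOH-fed livers at 0 h and lowest at 72 h after PHx in both diets. In untreated CHO-fed animals at 0 h miR-30c was 9.51, 8.65 and 9.83 log2 CPM (96, 25 and 135 counts). In untreated EtOH-fed animals at 0 h it was 10.15, 9.69 and 10.37 log2 CPM (170, 72 and 270 counts). The animal with the lowest value of each diet was that of set 2, and the diets overlapped by 1 CHO-fed animal. The difference of EtOH over CHO was 0.74 on the log2 scale (SE 0.25, 95% confidence interval 0.22 to 1.26), with a limma adjusted p = 0.123. In this comparison 2.1% of all 143 miRNAs were called at an adjusted p under 0.05, and 0 of the 6 members. Animals with the same set number deviated together across the diets here (correlations of 0.52, 0.79 and 0.65), which the main fit leaves out. With the replicate block 0 members were called as well. Without the third untreated CHO-fed animal at 0 h the difference was 0.99 with a limma adjusted p = 0.0381, and without the second it was 0.40.

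The saline and AM21 animals at 0 h had miR-30c values that lay the same way. With saline, the CHO-fed livers held 9.60, 9.34 and 9.59 log2 CPM and the EtOH-fed livers 9.73, 9.79 and 9.84 log2 CPM. With AM21, the CHO-fed livers held 9.62, 9.76 and 9.55 log2 CPM and the EtOH-fed livers 9.99, 10.13 and 10.12 log2 CPM. The diets did not overlap within the saline animals or within the AM21 animals. Overlap was looked at for the members only, here and below, so no share over all miRNAs stands beside it. By limma the difference of EtOH over CHO with saline was 0.28 on the log2 scale (confidence interval -0.16 to 0.71). With AM21 it was 0.44 (confidence interval -0.002 to 0.87). Both intervals contained 0, so neither treatment alone showed a difference by diet in this test. The intervals rest on the spread shared by all groups at 0 and 24 h. The SDs of these saline and AM21 groups were 0.06 to 0.15, against 0.61 for untreated CHO at 0 h.

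Over all treatments at 0 h, miR-30c was higher in EtOH-fed than in CHO-fed livers by 0.48 on the log2 scale, or 1.40-fold (SE 0.12, 95% confidence interval 0.23 to 0.74, limma adjusted p = 0.00783). The 9 EtOH-fed animals ranged from 9.69 to 10.37 with a median of 9.99 log2 CPM and the 9 CHO-fed animals from 8.65 to 9.83 with a median of 9.59, so the ranges overlapped. miR-30c was the 1 member called of 6, where 14.7% of all miRNAs were called. By treatment the difference was 0.74 (untreated), 0.28 (saline) and 0.44 (AM21), and within sets 1, 2 and 3 it was 0.38, 0.62 and 0.45. The totals moved with diet at 0 h: CHO-fed livers had 58168 to 171780 counts (median 126821) and EtOH-fed livers 92245 to 240355 (median 185564). With log10 of the total as a covariate the difference was 0.27, with a limma adjusted p = 0.23. Without both untreated animals of set 2 it was 0.43, with a limma adjusted p = 0.0049.

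**Figure D1:**
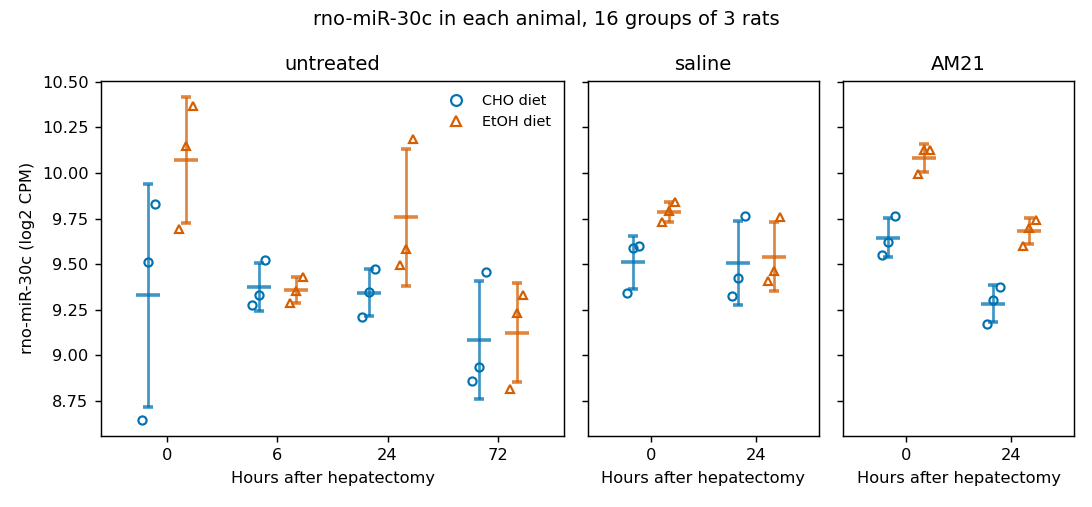
rno-miR-30c in log2 CPM (y axis) by hours after PHx (x axis) in untreated, saline and AM21 animals, where each open circle is a CHO-fed rat, each open triangle an EtOH-fed rat, and each bar with whiskers the mean ± SD of 3 rats. At 0 h the EtOH-fed animals (9.69 to 10.37) lie mostly above the CHO-fed animals (8.65 to 9.83), and at 72 h both diets lie low, with means of 9.13 and 9.08.

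The other members differed less by diet at 0 h. Over all treatments miR-30b-3p, the passenger strand of the Mir30b hairpin, had a difference of EtOH over CHO of -0.44 (SE 0.18, limma adjusted p = 0.0939) on the log2 scale. miR-30a had a limma difference with a 95% interval that contained 0, and the same held for miR-30b-5p, miR-30d and miR-30e. Among the miRNAs known for hepatic lipid handling, 5 of 7 were measured. Of these 1 was called, miR-122, higher in EtOH-fed livers by 0.43, where 14.7% of all miRNAs were called. The median of that list was -0.02, against -0.04 over all miRNAs. Of the hepatocyte markers 1 of 3 was called, again miR-122, which is on both lists. Their summed level was 18.34 to 19.35 in CHO-fed and 19.06 to 19.42 log2 CPM in EtOH-fed livers. With 42.1% to 68.8% of each total, miR-122 weighs heavily in that sum, here and below. Of the leukocyte markers 1 of 4 was called (miR-342-3p, higher by 0.72), with summed levels of 11.28 to 12.23 in CHO-fed and 11.55 to 12.03 log2 CPM in EtOH-fed livers. No marker of red blood cells (0 of 2), stellate and mesenchymal cells (0 of 4), endothelium (0 of 1) or biliary epithelium (0 of 2) was called, and no marker miRNA was at 0 in any animal. The part of the totals and of these cell types in the miR-30c difference was not tested beyond the covariate.

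After PHx, miR-30c was lower in EtOH-fed livers at 72 h than at 0 h. The untreated EtOH-fed animals at 72 h held 9.33, 9.23 and 8.82 log2 CPM (139, 134 and 72 counts), all below the 3 animals at 0 h (10.15, 9.69 and 10.37). miR-30c fell by 0.94 on the log2 scale, to 0.52 of its level at 0 h (SE 0.25, 95% confidence interval -1.47 to -0.42, limma adjusted p = 0.00937). It was the 1 member called of 6, against 18.2% of all miRNAs. Leaving out 1 animal ended the call in 2 cases, the third EtOH-fed animal at 0 h (-0.79, limma adjusted p = 0.0622) and the animal at 72 h numbered 12 in set 4 (-0.79, limma adjusted p = 0.0618). At 6 h the EtOH-fed livers held 9.35, 9.29 and 9.43 log2 CPM of miR-30c, also below all 3 at 0 h, with a difference of -0.71 (SE 0.25, limma adjusted p = 0.0617, and 0.00304 to 0.305 over the alternatives, 4 of which called it), and 11.2% of all miRNAs but 0 members were called. At 24 h they held 10.19, 9.59 and 9.50 log2 CPM, a difference of -0.31 from 0 h with a limma adjusted p = 0.491, where 1.4% of all miRNAs and 0 members were called.

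In CHO-fed livers no difference of miR-30c after PHx was called without a covariate. The untreated CHO-fed animals held 9.27, 9.33 and 9.52 log2 CPM at 6 h. At 24 h the values were 9.35, 9.21 and 9.47, and at 72 h they were 8.94, 9.46 and 8.86. The differences from 0 h were 0.05, 0.02 and -0.25 on the log2 scale, in the same order. With log10 of the total as a covariate the difference at 72 h was -0.78, with a limma adjusted p = 0.0368, and without both untreated 0 h animals of set 2 it was -0.59, with a limma adjusted p = 0.0559. The spread of the 3 CHO-fed animals at 0 h (SD 0.61 around a mean of 9.33) was the widest of miR-30c in any group. The share of all miRNAs called was 2.1% at 6 h, 1.4% at 24 h and 18.2% at 72 h against 0 h in CHO-fed livers, with 0 members called at each time. In every comparison of untreated animals with 0 members called, 0 or 1 member had an unadjusted p under 0.05. Over all 143 miRNAs, 8 to 63 did so in these comparisons.

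Between diets after PHx, the difference of EtOH over CHO for miR-30c in untreated animals was -0.02 (6 h), 0.41 (24 h) and 0.04 (72 h) on the log2 scale. These comparisons called 0%, 2.1% and 0% of all miRNAs and 0 members. By limma, 13 miRNAs passed an unadjusted threshold of 0.05 at 6 h, and 14 did so at 72 h. The test of the difference itself, a diet by time F test over the 4 times, gave F = 1.95 for miR-30c with a limma adjusted p = 0.999. That test called 0% of the 143 miRNAs. Before adjustment 8 passed, and no member was among them. The time courses of the diets were not shown to differ.

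Between 6 and 72 h, both in set 4, limma called 30.8% of all miRNAs in CHO-fed and 37.1% in EtOH-fed livers, and 0 of 6 members in each. In CHO-fed livers miR-30a was higher at 72 h (10.002, 10.08 and 10.27 log2 CPM) than at 6 h (9.53, 9.57 and 9.92), without overlap, by 0.44 on the log2 scale with a limma adjusted p = 0.1. In EtOH-fed livers miR-30b-3p was 7.84, 7.27 and 7.66 log2 CPM at 72 h against 8.03, 8.39 and 8.07 at 6 h, also without overlap, a difference of -0.58 with a limma adjusted p = 0.0714. Those values at 6 h were also all above the EtOH-fed animals at 0 h (7.66, 7.94 and 7.40), by 0.50 with a limma adjusted p = 0.173.

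**Figure D2:**
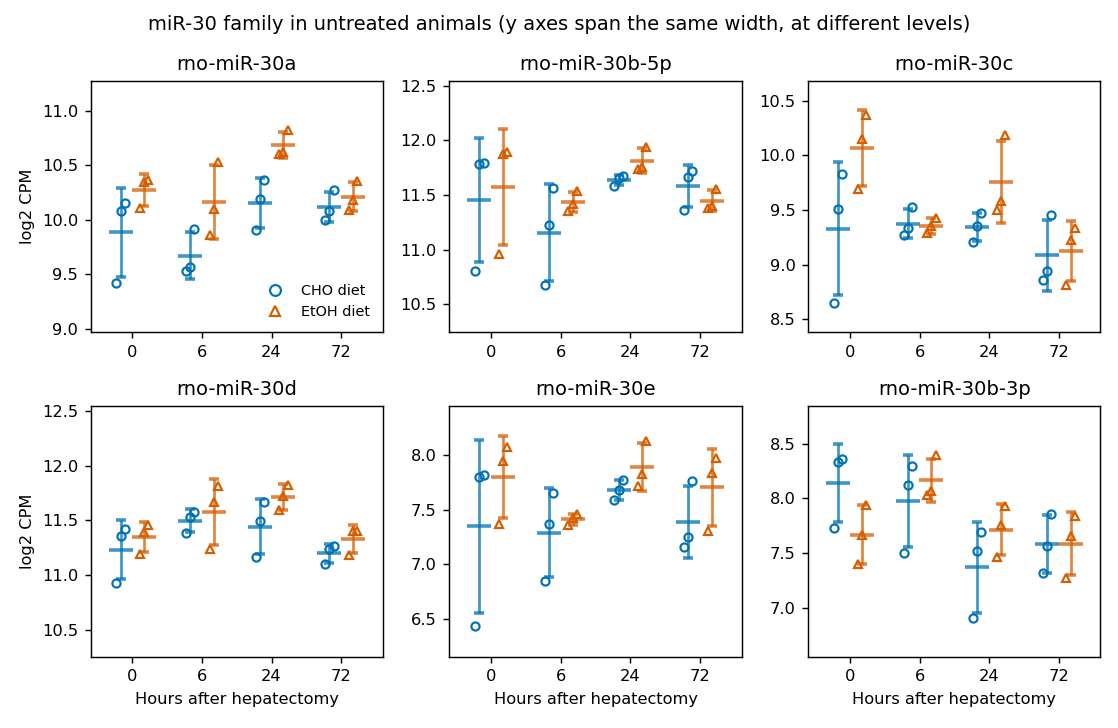
Log2 CPM (y axis, the same span in each panel at different levels) of the 6 miR-30 members by hours after PHx (x axis) in untreated rats, with circles for CHO-fed and triangles for EtOH-fed animals and bars for the mean ± SD of 3. miR-30a stands highest in EtOH-fed livers at 24 h (10.61 to 10.82), while miR-30c stands highest in EtOH-fed livers at 0 h.

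Single markers of other cells were also called in the EtOH-fed livers between 0 and 72 h, where 18.2% of all miRNAs were called. The red blood cell markers summed to 9.46 to 10.89 log2 CPM at 72 h and 10.90 to 11.89 at 0 h, and 1 of 2 was called (miR-451, -0.90). The stellate and mesenchymal markers summed to 13.65 to 13.88 at 72 h and 14.09 to 14.35 at 0 h, and 1 of 4 was called (miR-145, -0.89). The leukocyte markers summed to 11.61 to 11.74 at 72 h and 11.66 to 12.03 at 0 h, with 1 of 4 called (miR-150, -0.78). The hepatocyte markers summed to 19.22 to 19.58 at 72 h and 19.10 to 19.36 at 0 h, with 0 of 3 called. No endothelial or biliary marker was called. Totals of these EtOH-fed animals were 92245 to 205241 counts at 0 h and 163533 to 267582 at 72 h. The part of these cells in the lower miR-30c was not tested. With the total as a covariate the difference of miR-30c was -1.27, and without both untreated 0 h animals of set 2 it was -1.13.

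The miRNAs listed by the study as falling in activated hepatic stellate cells, the matrix-forming cells of the liver, include miR-30a, miR-30b-5p, miR-30c and miR-30d. The study took the list from earlier profiles of stellate cells activated in culture. Of the 21 measured, limma called 5 in EtOH-fed livers at 72 h against 0 h, where 18.2% of all miRNAs were called, 4 lower (miR-181a, miR-29a, miR-30c and miR-150) and 1 higher (miR-16). The list's median was -0.02 on the log2 scale, against 0.03 over all miRNAs. Of the 14 measured miRNAs listed as rising in activated stellate cells, 3 were called, miR-22 (-0.89) and miR-145 (-0.89) lower and miR-132 (1.08) higher, and the median was -0.07. Among miRNAs known, like miR-30, to act on matrix genes, 3 of 5 were measured, and 1 was called, miR-29a, lower by 0.74. Of the hepatic lipid list, 2 of 5 were called, miR-34a (1.30) higher and miR-27b (-0.57) lower. In CHO-fed livers at 72 h against 0 h the stellate cell lists had 2 of 21 and 3 of 14 called, where the share of all miRNAs was also 18.2%, and their medians were 0.05 and 0.22.

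miR-30a was higher at 24 h than at 0 h after PHx in each of the 6 combinations of diet and treatment, by 0.27 to 0.77 on the log2 scale. In AM21 animals of both diets it rose by 0.52, or 1.43-fold (SE 0.17, 95% confidence interval 0.17 to 0.87, limma adjusted p = 0.0434), and was the 1 member called of 6, where 14% of all miRNAs were called. The CHO-fed AM21 livers held 10.45, 10.30 and 9.84 log2 CPM of miR-30a at 0 h and 10.71, 10.27 and 10.41 at 24 h. The EtOH-fed AM21 livers held 10.49, 9.29 and 10.24 at 0 h and 10.90, 10.68 and 10.76 at 24 h. The times overlapped in CHO-fed animals and did not overlap in EtOH-fed animals, and the second EtOH-fed animal at 0 h was the lowest of all 48 for this miRNA.

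The rise of miR-30a under AM21 was close to the threshold. Without the second EtOH-fed AM21 animal at 0 h it was 0.34 (limma adjusted p = 0.159), and 7 of the 12 animals ended the call when left out. Within sets 1, 2 and 3 the difference was 0.34, 0.68 and 0.54. In this comparison 14% of all miRNAs were called. Of the marker lists, the red blood cell markers had 1 of 2 called (miR-451, -0.97), with sums of 9.55 to 10.73 log2 CPM at 24 h and 9.99 to 12.54 at 0 h. The stellate and mesenchymal markers had 1 of 4 called (miR-143, 0.43), with sums of 13.68 to 14.20 at 24 h and 13.80 to 14.28 at 0 h. The hepatocyte markers had 0 of 3 called, with sums of 19.11 to 19.74 at 24 h and 18.90 to 19.42 at 0 h. No leukocyte, endothelial or biliary marker was called. The part of these cells in the difference was not tested.

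In animals without AM21 the values of miR-30a lay the same way and did not pass the test. In untreated and saline EtOH-fed livers miR-30a was 10.01 to 10.36 log2 CPM at 0 h (median 10.20) and 10.49 to 10.82 at 24 h (median 10.67), 6 animals each and without overlap. The difference was 0.47 (SE 0.17, limma adjusted p = 0.0693), where 11.2% of all miRNAs and 0 members were called. Animals with the same set number deviated together in this comparison, and with the replicate block the difference of 0.47 had a limma adjusted p = 0.04. In untreated and saline CHO-fed livers the difference was 0.39 (SE 0.17, limma adjusted p = 0.0897), from 9.40 to 10.16 at 0 h and 9.90 to 10.50 at 24 h. The change from 0 to 24 h was larger under AM21 than in the other animals by 0.09, with a 95% interval of -0.33 to 0.52 and a limma adjusted p = 0.998. That test called 0 of 143 miRNAs, and 4 passed before adjustment.

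miR-30c went the other way in the AM21 animals. At 24 h it was 9.17, 9.37 and 9.30 log2 CPM in CHO-fed and 9.70, 9.60 and 9.74 in EtOH-fed AM21 livers. Each was below all AM21 animals of the same diet at 0 h. The difference was -0.38 (SE 0.15, limma adjusted p = 0.0836) on the log2 scale. In untreated and saline EtOH-fed livers it was -0.28 (limma adjusted p = 0.223). In untreated and saline CHO-fed livers it was 0.0045 (limma adjusted p = 0.983), and the alternatives ran from -0.19 to 0.13.

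**Figure D3:**
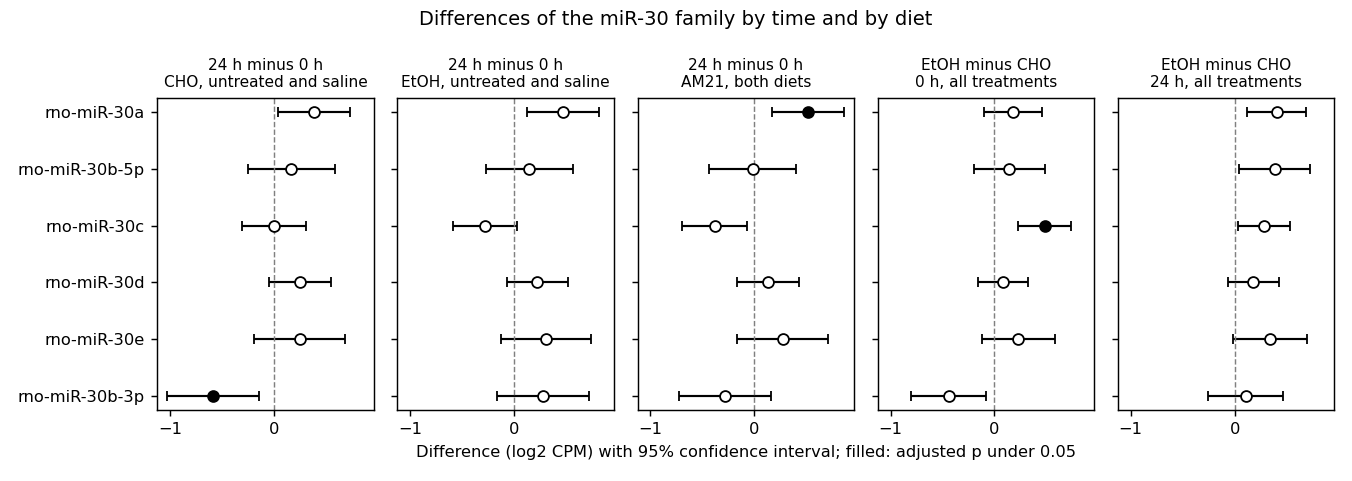
Difference in log2 CPM (x axis) of each miR-30 member (y axis) between 24 and 0 h and between EtOH and CHO, with 95% confidence intervals and filled points for limma adjusted p under 0.05. The filled points are miR-30b-3p (-0.58), miR-30a (0.52) and miR-30c (0.48), and at 24 h all 6 members lie above 0 for EtOH over CHO.

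At 24 h all 6 members had higher means in EtOH-fed than in CHO-fed livers over all treatments, by 0.11 to 0.40 on the log2 scale. The members share animals and libraries, so their directions are not separate observations. By treatment miR-30b-3p differed by 0.35 (untreated), 0.25 (saline) and -0.28 (AM21). limma called none of the 6 members. Before adjustment 3 of them (miR-30a, miR-30b-5p and miR-30c) had a p under 0.05, as did 21 of all 143 miRNAs. The median difference of the members was 0.31, against -0.02 over all 143 miRNAs, of which limma called 1.4%. miR-30a was 10.49 to 10.90 log2 CPM in the 9 EtOH-fed livers (median 10.71) and 9.90 to 10.71 in the 9 CHO-fed livers (median 10.36), with a difference of 0.40 (SE 0.14, limma adjusted p = 0.138). For miR-30b-5p the difference was 0.39 (SE 0.17, limma adjusted p = 0.26) and for miR-30c 0.28 (SE 0.12, limma adjusted p = 0.264). By treatment the difference of miR-30b-5p was 0.18 (untreated), 0.11 (saline) and 0.88 (AM21), and the AM21 animals held 10.39, 11.65 and 11.32 log2 CPM in CHO-fed and 12.25, 11.84 and 11.91 in EtOH-fed livers. By treatment miR-30a differed by 0.53, 0.36 and 0.32 and miR-30c by 0.41, 0.04 and 0.40, in the same order. Within sets 1, 2 and 3 miR-30a differed by 0.29, 0.51 and 0.41 and miR-30b-5p by 0.76, 0.13 and 0.27. In untreated animals alone, the EtOH-fed livers (10.82, 10.62 and 10.61) did not overlap the CHO-fed livers (10.36, 9.90 and 10.19) for miR-30a, with a difference of 0.53 and a limma adjusted p = 0.157. At 6 h the difference of miR-30a was 0.49 with a limma adjusted p = 0.47 and overlap between diets.

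Of the strands of the Mir30b hairpin, the 3p strand was called in CHO-fed livers and the 5p strand was not. miR-30b-3p fell from 0 to 24 h in untreated and saline CHO-fed animals by 0.58 on the log2 scale, to 0.67 of its level at 0 h (SE 0.22, 95% confidence interval -1.03 to -0.14, limma adjusted p = 0.0459), and was the 1 member called of 6, where 25.2% of all miRNAs were called. The difference of miR-30b-5p in the same animals was 0.17 (95% confidence interval -0.25 to 0.59, limma adjusted p = 0.565), and whether the strands differed from each other was not tested. At 0 h the 6 animals held 7.20 to 8.57 log2 CPM of miR-30b-3p (median 8.35, 20 to 51 counts) and at 24 h 6.90 to 8.08 (median 7.54, 16 to 44 counts), so the times overlapped. In untreated animals alone they did not: 8.36, 8.33 and 7.73 at 0 h against 6.90, 7.51 and 7.69 at 24 h, a difference of -0.77 with a limma adjusted p = 0.0747.

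The fall of miR-30b-3p differed by set. Within sets 1, 2 and 3 the difference was -1.26, 0.03 and -0.52. By mean count miR-30b-3p ranked 140 of the 143 miRNAs. With a filter of at least 50 counts in at least 3 animals it was no longer tested, the only member so removed. With the total as a covariate the difference was -0.34 (limma adjusted p = 0.265), and 7 of the 12 animals ended the call when left out (limma adjusted p = 0.0793 to 0.135). In untreated and saline EtOH-fed livers the difference of miR-30b-3p had a 95% interval that contained 0. The change from 0 to 24 h was higher in EtOH-fed than in CHO-fed livers over all treatments by 0.55 for miR-30b-3p (95% confidence interval 0.04 to 1.06, limma adjusted p = 0.347), in a test that called 0 of 143 miRNAs, 17 of which passed before adjustment. The hepatocyte markers had 1 of 3 called in CHO-fed livers at 24 h against 0 h (miR-122, 0.55), and their sums were 19.15 to 19.41 log2 CPM at 24 h and 18.34 to 19.35 at 0 h. The stellate and mesenchymal markers had 1 of 4 called (miR-145, -0.39), with sums of 13.82 to 14.31 at 24 h and 14.37 to 14.61 at 0 h. Of the leukocyte markers 1 of 4 was called (miR-150, -0.52), with sums of 11.29 to 11.59 at 24 h and 11.28 to 11.80 at 0 h. No red blood cell, endothelial or biliary marker was called, where 25.2% of all miRNAs were called. The part of these cells was not tested.

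miR-30b-3p was lower at 72 than at 0 h in untreated CHO-fed livers by a mean of -0.56 with overlap and a limma adjusted p = 0.106. miR-30d, which varied least of the members (group means within 0.55 of each other), was 11.46, 11.19 and 11.39 log2 CPM at 0 h and 11.83, 11.73 and 11.59 at 24 h in untreated EtOH-fed livers. Those groups did not overlap, and the difference of 0.37 had a limma adjusted p = 0.255. No comparison called miR-30b-5p, miR-30d or miR-30e in the main fit, but some alternatives did. Among them, 2 called miR-30b-5p for CHO 6 against 0 h (lowest limma adjusted p = 0.0151). For EtOH 72 against 6 h 2 called miR-30d (lowest limma adjusted p = 0.0393). For EtOH 6 against 0 h 1 called miR-30e (limma adjusted p = 0.0403). The share of all miRNAs called under these alternatives was not counted.

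No difference of a miR-30 member with AM21 was detected. miR-21, the target of AM21, was lower in AM21 animals than in untreated and saline animals by a mean of -7.15 on the log2 scale. Against untreated and saline animals over both diets and times, the differences of the 6 members lay between -0.17 and 0.17 on the log2 scale, with all 95% intervals between -0.44 and 0.43. limma called 0 members and 5.59% of all miRNAs. At 0 h the differences lay between -0.11 and 0.19, with 4.2% of all miRNAs called, and at 24 h between -0.24 and 0.17, with 2.8% called. The test of whether the difference with AM21 depended on diet called 0 of 143 miRNAs, and 8 passed before adjustment. For miR-30a this difference between diets was -0.34 (95% confidence interval -0.76 to 0.09). Saline against no injection gave differences of -0.05 to 0.05 among the members, with 1.4% of all miRNAs called. No member had an unadjusted p under 0.05 in any of these comparisons, where 8 to 17 of all 143 miRNAs did.

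The highest and lowest groups of miR-30a were EtOH at 24 h with AM21 (10.78 ± 0.11 log2 CPM, SD, n = 3) and untreated CHO at 6 h (9.67 ± 0.21), and the 3 EtOH groups at 24 h held the first 3 places. For miR-30c the first 3 places were the 3 EtOH groups at 0 h (10.08 ± 0.08 with AM21, 10.07 ± 0.35 untreated, 9.79 ± 0.06 with saline). Its last places were EtOH (9.13 ± 0.27) and CHO (9.08 ± 0.32) at 72 h. miR-30e, like miR-30a, had the EtOH groups at 24 h in its first 3 places (8.17 ± 0.09 with AM21, 8.15 ± 0.16 with saline, 7.89 ± 0.22 untreated). miR-30b-3p was highest in untreated EtOH at 6 h (8.17 ± 0.20) and lowest in EtOH at 24 h with AM21 (7.30 ± 0.18), the group in which miR-30b-5p was highest (11.999 ± 0.22). Neighbours in the order were closer than the pooled within-group SD of the member in all 15 gaps for 5 of the members. For miR-30c 1 gap of 15, between untreated and saline EtOH at 0 h, was 0.28 against a pooled SD of 0.25.

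Over the 16 group means the Pearson correlations of the 10 pairs among the other 5 members were all above 0 (0.16 to 0.87), and those of miR-30b-3p with each of them were all below 0 (-0.50 to -0.09). Within groups the 10 pairs ran from 0.20 to 0.70, the highest between miR-30b-5p and miR-30d. The correlation was 0.87 between miR-30a and miR-30e, which differ at 1 base, and 0.56 between their residuals within groups over 48 animals. miR-30b-5p correlated with miR-30a at 0.60 and with miR-30e at 0.60, and miR-30a with miR-30d at 0.57. miR-30c correlated with miR-30a at 0.18, with miR-30d at 0.16, with miR-30e at 0.43 and with miR-30b-5p at 0.44. miR-30b-5p and miR-30b-3p, the strands of 1 hairpin, had a correlation of -0.45 over group means and -0.33 within groups. These are descriptions of points that share animals and libraries. Within groups the members also moved with the total: the correlation with log10 total was 0.59 for miR-30d, 0.51 for miR-30b-5p, 0.47 for miR-30a, 0.46 for miR-30c, 0.26 for miR-30e and -0.45 for miR-30b-3p, against a median of -0.002 over all miRNAs.

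By the same measure over 16 group means, the miRNAs most like miR-30c were miR-22 (0.77), miR-23b (0.72), miR-148b-3p (0.70), miR-365 (0.67) and miR-23a (0.65), and the least like were miR-132 (-0.68), miR-199a-5p (-0.65) and miR-93 (-0.64). Within groups, over 48 animals, the correlations of the 5 most like ranged from -0.14 to 0.48. For miR-30a the closest were miR-30e (0.87), miR-140 (0.84), miR-19b (0.72), miR-194 (0.71) and miR-29c (0.70), and the least like miR-99b (-0.77), miR-743b (-0.75) and let-7b (-0.74), with 0.17 to 0.69 within groups for the 5 most like. miR-30e was closest to miR-30a (0.87), miR-29c (0.78), miR-140 (0.67), miR-194 (0.66) and miR-19b (0.65), and least like miR-99b (-0.89), miR-125a-5p (-0.76) and miR-532-3p (-0.70), with 0.26 to 0.78 within groups for the first 5. miR-30b-5p was closest to the hepatocyte miRNAs miR-194 (0.82) and miR-192 (0.63), followed by miR-152 (0.61), miR-30a (0.60) and miR-101b (0.60), and least like let-7b (-0.70), let-7i (-0.66) and miR-3589 (-0.61). Within groups its 5 closest had correlations of 0.41 to 0.75, the highest with miR-194.

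miR-30d was closest to miR-345-5p (0.66), miR-3585-5p (0.65), miR-378 (0.65), miR-31 (0.63) and miR-24 (0.61), and least like miR-99a (-0.67), miR-219-2-3p (-0.61) and miR-181c (-0.61), and its 5 closest had -0.37 to 0.62 within groups. miR-30b-3p was closest to miR-326 (0.69), miR-206 (0.69), miR-3593-3p (0.65), miR-3594-3p (0.64) and miR-196b (0.63), and least like miR-335 (-0.68), miR-195 (-0.67) and miR-322 (-0.65), and its 5 closest had -0.12 to 0.56 within groups. Of the 5p members, only miR-30a, miR-30b-5p and miR-30e had another miR-30 miRNA among their 5 closest.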

How the data were processed

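The deposited values are log2 CPM of 143 miRNAs in 48 rats, which the authors made from NanoString nCounter counts, scaled by TMM and transformed with voom in limma. The alternatives tried are given in the closing section. Whole counts were recovered from them with the pseudocount of 0.5 that voom adds, within 0.001 of a whole number. All 143 miRNAs were fitted on the deposited log2 values with lmFit and eBayes of limma 3.58.1 (R 4.3.3), with 1 mean per group and no filter. Untreated time and diet comparisons used 24 animals, and those with saline or AM21 used 36 animals at 0 and 24 h. P-values were adjusted by Benjamini-Hochberg over the 143 miRNAs and called under 0.05. The script was tested on simulated data. Members and lists were chosen with earlier results of these data known. Named miRNAs were the members, for each the 5 most and 3 least like by Pearson correlation of group means, and at most 3 list members with the smallest adjusted p. Other called list and marker miRNAs, and miR-21, were named after their values were seen. Figures used matplotlib 3.10.9 (Python 3.11.15).

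Whether animals of 1 set number deviate together was checked on residuals from group means. All 3 correlations passed 0.1 for CHO at 24 and 0 h untreated (0.12, 0.30 and 0.28), for the diets at 0 h untreated (0.52, 0.79 and 0.65), for EtOH at 24 and 0 h with saline animals (0.16, 0.19 and 0.29) and for the diets at 24 h over all treatments (0.42, 0.31 and 0.15). The labels do not say what a set is. The replicates of a group are separate rats.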

Additional observations from a re-analysis of the deposited data

How the results depend on the processing

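Each result was recomputed with RLE size factors, with scaling to the 100 highest probes, with a filter of at least 50 counts in 3 animals (138 miRNAs), voom weights, log10 of the total as a covariate, fits of only the groups compared, the replicate block for 0 and 24 h, leaving out each animal in turn (where this left 2 in a group, the shared spread was taken to hold) and, chosen after seeing the data, leaving out both untreated 0 h animals of set 2. Scaling to the 100 highest probes shifted the median of all miRNAs by over 0.1 in 4 comparisons, by 0.13 for EtOH 6 against 0 h, by -0.10 and -0.15 for 72 against 6 h in CHO and EtOH and by 0.10 for AM21 at 24 h. Of the 30 single values named, 440 recomputed values kept their direction and side of the threshold, 22 lost the call, 20 gained it and 29 changed sign, the last all for miR-30c differences near 0. The replicate block changed the number of members called only for EtOH 24 against 0 h with untreated and saline animals, from 0 to 1 (miR-30a, limma adjusted p = 0.04), and no other call. Leaving out 1 animal gave 0 to 1 members called for CHO at 6, 24, and 72 h, EtOH at 6 and 72 h (each against 0 h), the diets at 0 h untreated, CHO 24 against 0 h with saline animals and AM21 24 against 0 h, and 1 to 2 for the diets at 0 h over all treatments. With the covariate 1 member was called for CHO 72 and EtOH 6 against 0 h, 2 for EtOH 72 against 6 h and AM21 24 against 0 h, and 0 for the diets at 0 h over all treatments and CHO 24 against 0 h with saline animals. The latter also had 0 under the filter, voom weights, only the groups compared and without the set 2 animals. Voom weights gave 1 for EtOH 6 against 0 h. Without the set 2 animals 1 member was called for CHO 6 and EtOH 24 against 0 h (the latter with saline animals) and 2 for EtOH 6 against 0 h. EtOH 72 against 6 h had 1 with RLE, 2 with the 100 highest probes and 1 with only the groups compared, a setting that gave 1 for EtOH 24 against 0 h with untreated and saline animals and 2 (miR-30a and miR-30e) for the diets at 24 h over all treatments. The cause was not tested. Under these settings only members were counted, so the calls gained or lost have no share of all miRNAs beside them. miR-30c changed sign for CHO 6 against 0 h under voom weights (-0.013), the covariate (-0.027), without the set 2 animals (-0.29) and over single omissions (-0.29 to 0.30), and for CHO 24 against 0 h with the 100 highest probes (-0.073), voom weights (-0.044), the covariate (-0.27), without the set 2 animals (-0.33) and over single omissions (-0.33 to 0.27). With untreated and saline animals, miR-30c for CHO 24 against 0 h was -0.073 with the 100 highest probes, -0.032 with voom weights, -0.19 with the covariate and -0.17 without the set 2 animals, with single omissions from -0.17 to 0.13. For CHO 72 against 0 h single omissions ran from -0.59 to 0.0054. For EtOH against CHO at 6 h miR-30c was 0.0059 with RLE and 0.0051 with the 100 highest probes, with single omissions from -0.071 to 0.054, and at 72 h it was -0.063 with the covariate, with single omissions from -0.071 to 0.23. miR-30b-3p and miR-30e had the lowest median counts of the members (31.5 and 33), with counting errors of 17.8% and 17.4% at those medians. Their pooled within-group SDs were 0.38 and 0.37, against 0.35 for miR-30b-5p with a median of 527 counts. The part of counting error in their spread was not tested.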
